A study of Mus musculus with 12 samples.

Results

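Kupffer cells are the macrophages that reside in the sinusoids of the liver, and 10 genes used to recognise them in mouse tissue are described here: Clec4f, Vsig4, Timd4, Cd5l, Marco, Cd163, Folr2, Adgre1, Csf1r and Nr1h3. The genes form a list of resident Kupffer cell markers that was drawn up by name, with earlier results of these data known. They are 10 of 24187 mouse genes counted in whole liver, and all 10 passed the filter on low counts that left 22581 genes for testing. RNA came from the livers of C57BL/6 mice, whose substrain the study's methods give both as C57BL/6J and as C57BL6/JOlaHsd, 10 to 12 weeks old and male or female by the study's general methods. The 3 control mice were untreated. The 5 vehicle-treated mice received acetaminophen (APAP), which kills hepatocytes around the central veins, followed by phosphate-buffered saline. The labels give the dose as 350 mg/kg, whereas the study's text sets these data beside a model with a higher dose, so the dose is not certain. The 4 hAAM-treated mice received the same dose of APAP followed by human alternatively activated macrophages (hAAMs), which are blood CD14+ monocytes grown into macrophages with CSF1, polarised with IL-4 and IL-13, and frozen before use. Cells or vehicle were injected 16 h after APAP, and livers were collected at 32 or 36 h, as a legend for the higher-dose model and the methods differ on this. The recipients were mice of an ordinary inbred strain that received cells of another species, and reads from any human macrophage left in a liver were aligned to the mouse genome only.

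Resident Kupffer cells settle in the liver before birth, renew themselves in place and clear microbes, spent red cells and dying cells from portal blood. Signals from neighbouring endothelial, stellate and parenchymal cells, among them Notch ligands, TGF-beta family proteins and the CSF1 receptor ligands, maintain a set of transcription factors that includes LXR-alpha and ID3. After APAP, resident cells are known to be lost in part while monocytes enter from blood and become macrophages, which switch on some Kupffer genes early and others, such as Timd4, late. The 10 genes differ in how narrowly they mark the resident cell. Clec4f is largely restricted to Kupffer cells, Adgre1 and Csf1r are shared with incoming macrophages, and Nr1h3 is also made by hepatocytes, so that its level in whole liver is not a measure of Kupffer cells alone.

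Library totals ranged from 47391650 to 74056505 counts over the 12 livers. Scaling by the trimmed mean of M values (TMM) gave the control libraries factors of 0.832 to 0.859, below every APAP library, whose factors ran from 0.933 to 1.14. With library totals alone, the fold change of the median gene against control, on the log2 scale, was 0.36 rather than 0.01 in vehicle-treated mice, and 0.32 rather than 0.02 with hAAMs. Directions below are therefore relative to the bulk of genes, and members whose sign depends on the scaling are named. Vehicle mouse 3 and hAAM mouse 4 stood apart in another way. Their counts differed from each other by 1.19 times the spread that counting alone gives, whereas the other 65 pairs of livers differed by 2.37 to 7.12 times that spread, although these libraries carry different group labels. Member values and list counts are given with both. Member values that turn on them are also given without both, as are the list counts that changed most. Vehicle mouse 5 had a summed level of B cell genes of 59.7 TMM-scaled CPM (a count divided by the scaled total of its library), against 3.90 to 4.96 in the other vehicle-treated mice, and its summed level of red cell genes was 2025 CPM, against 220.4 to 518.8. The hepatocyte list (Alb, Apoa1, Ttr, Hnf4a, Cyp2e1) summed to 47190 to 83770 CPM over all livers.

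RefSeq promoter windows, which run from 250 bases before to 50 bases after each transcript start on GRCm38.p6, were used for 8 of the 10 members. Those of Marco, the member whose level moved furthest in injured liver, and Timd4, a marker whose level differed little between groups, are shown for their 250 bases upstream of the start, read 5′ to 3′ on the gene's own strand. Capitals mark matches, on either strand, to a letter pattern bound by a macrophage transcription factor family: GAGGAA (PU.1 core), AGGTCA (nuclear receptor element), TGGGAA (RBPJ) and TGCTGAC (MAF element). No matches overlap in these windows.
Marco, chr1:120505025-120505274, minus strand: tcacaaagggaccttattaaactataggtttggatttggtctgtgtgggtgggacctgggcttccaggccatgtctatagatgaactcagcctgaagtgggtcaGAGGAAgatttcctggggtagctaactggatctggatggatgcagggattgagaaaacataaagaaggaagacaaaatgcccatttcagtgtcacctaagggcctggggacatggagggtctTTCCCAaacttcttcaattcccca
Timd4, chr11:46810549-46810798, plus strand: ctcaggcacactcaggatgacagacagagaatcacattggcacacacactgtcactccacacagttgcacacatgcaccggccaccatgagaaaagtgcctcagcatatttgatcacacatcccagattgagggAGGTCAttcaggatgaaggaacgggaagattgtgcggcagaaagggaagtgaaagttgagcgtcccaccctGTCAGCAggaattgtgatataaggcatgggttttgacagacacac
The Marco window holds the PU.1 core 146 bases before the start and the RBPJ pattern, read on the other strand, 24 bases before it. The Timd4 window holds the nuclear receptor element 116 bases before the start and the MAF element, on the other strand, 45 bases before it. Over these 8 members, the PU.1 core was found in 4 (Cd5l, Marco, Nr1h3, Vsig4), the RBPJ pattern in 3 (Clec4f, Marco, Nr1h3), the nuclear receptor element in 2 (Clec4f, Timd4) and the MAF element in 1 (Timd4). The same patterns occur in 28.3%, 25.6%, 16.3% and 4.67% of the 32851 promoter windows searched, respectively. These shares are per window, whereas a member counts if any of its windows holds the pattern. Nr1h3 and Folr2 have more than 1 window each, and only 1 of those of Nr1h3 holds the PU.1 core. These matches are a description of the letters and not of binding.

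On the GRCm38 build, Clec4f lies on chr6:83644542-83656187 (minus strand), Vsig4 on chrX:96247203-96293438 (minus), Timd4 on chr11:46810800-46844332 (plus), Cd5l on chr3:87357881-87371073 (plus) and Marco on chr1:120474538-120505024 (minus). Cd163 lies on chr6:124304656-124330527 (plus), Folr2 on chr7:101839988-101857194 (minus), Adgre1 on chr17:57358691-57483527 (plus), Csf1r on chr18:61100598-61132149 (plus) and Nr1h3 on chr2:91184061-91202834 (minus). All values below are counts over annotated exons. Exons of 3 members overlap those of another gene in the GENCODE vM21 annotation. Folr2 shares 975 of its 1546 exon bases with the antisense gene Gm10602, Csf1r shares 873 bases with Hmgxb3 on the other strand, and Nr1h3 shares 34 bases with Gm13783 on its own strand. Whether reads were counted by strand is not given in the sources used here, so reads in these stretches may be split between the genes or left out, and the level of Folr2 is the least certain of the 10. The overlapping genes had 11 to 62 counts per liver for Gm10602, 1160 to 1714 for Hmgxb3 and 5 to 27 for Gm13783.

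Levels of the members relative to each other were compared as TMM-scaled CPM per kilobase of exon. In control livers Cd5l was highest at 37.1 ± 7.74 CPM per kb (SD, n = 3), followed by Nr1h3 at 31.0 ± 1.63 and Clec4f at 30.7 ± 5.32, and the ranges of these 3 genes overlapped. A step lower came Vsig4 at 13.7 ± 3.06, Csf1r at 11.3 ± 1.50 and Marco at 10.1 ± 1.07, which also overlapped. Adgre1 at 7.04 ± 0.57 and Cd163 at 5.12 ± 1.64 overlapped with each other, whereas Timd4 at 2.90 ± 0.23 lay below every Cd163 value and Folr2 at 0.784 ± 0.174 below every Timd4 value. Thus the lectin and the secreted protein that Kupffer cells make in quantity sat at the top, beside Nr1h3, which hepatocytes also make. The phosphatidylserine receptor sat near the bottom. In injured liver the order changed for 1 gene. Marco was sixth in control livers and ranked 2 of 10 in both APAP groups, at 32.6 ± 5.94 CPM per kb in vehicle-treated mice (n = 5) and 28.4 ± 8.23 in hAAM-treated mice (n = 4), although there its range overlapped that of Nr1h3.

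Within the control and vehicle groups, some livers were the highest or lowest in many of these genes. The share of all genes for which each liver was extreme was not computed. A shift of a whole library can therefore not be told apart from one of these genes. Control mouse 1 had the lowest level of 9 of the 10 members in its group and control mouse 3 the highest of 8. Vehicle mouse 1 was highest in 8 members, and vehicle mouse 5, the liver with the high B cell and red cell sums, was lowest in 6. Among hAAM-treated mice the extremes were spread: mouse 3 was highest in 5 members and lowest in 2, mouse 1 was highest in 3, and mice 2 and 4 were each lowest in 4.

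**Figure D1:**
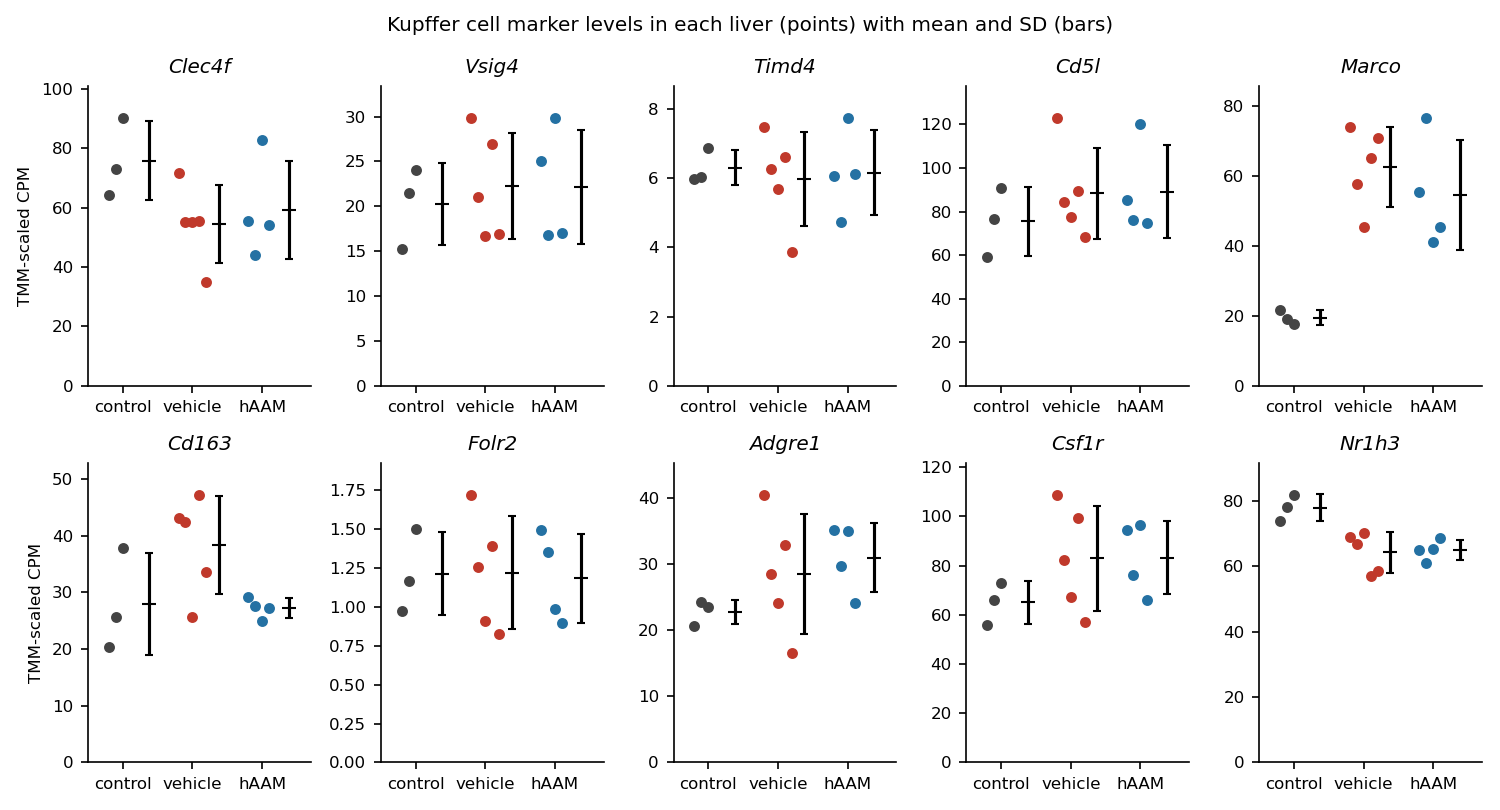
TMM-scaled CPM (y axes, each from 0) of the 10 Kupffer cell markers in each control (3), vehicle-treated (5) and hAAM-treated (4) liver, with the group mean and SD beside the points. Marco is higher in every APAP-treated liver than in any control liver, Nr1h3 is lower in every one, and the groups overlap for the other 8 genes.

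The first comparison asked how APAP injury without cells changed the markers. Of the 10 members, 1 rose (Marco) and 1 fell (Nr1h3) in vehicle-treated mice against control mice by edgeR's quasi-likelihood test at an adjusted p under 0.05 over all genes tested, and 8 did not pass. Among all genes 29.8% passed in either direction, 15.0% higher and 14.8% lower, so that 2 of 10 members is no more than the background gives. The median of the members was a log2 fold change of 0.18, against 0.01 for all genes, and 7 of the 10 had a value above 0, as did 51.0% of all genes. In bulk tissue, a smaller number of cells of a type and less RNA per cell cannot be told apart.

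Marco encodes a class A scavenger receptor that binds bacteria and particles. It was at 21.8, 19.1 and 17.7 CPM in control mice 1 to 3, at 74.0, 57.7, 45.5, 65.4 and 70.9 CPM in vehicle-treated mice 1 to 5 and at 55.4, 76.6, 41.1 and 45.4 CPM in hAAM-treated mice 1 to 4. Every APAP-treated liver was above every control liver, by a margin wider than the control range, whereas 17.5% of all genes had groups apart in this direction after vehicle and 14.3% after hAAMs. Marco was 3.21-fold above control in vehicle-treated mice (log2 fold change 1.68, SE 0.21, edgeR adjusted p = 3.3e-04), and the change lay at percentile 96.6 of all genes. It passed in each of 12 fits that left out 1 liver, at log2 fold changes of 1.62 to 1.78, and was 1.79 (adjusted p = 3.5e-04) without the near-identical pair. Genes of recruited monocytes and macrophages moved in the same livers. Their summed level over 13 genes was 49.0 to 59.5 CPM in the control livers, 126.1 to 468.9 CPM with vehicle and 123.9 to 392.1 CPM with hAAMs. Vehicle mouse 3 had the lowest sum and the lowest Marco of its group, whereas vehicle mouse 4 had the highest sum and a Marco level in the middle. The part of such cells in the rise of Marco was not tested.

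Clec4f encodes a galactose-binding C-type lectin of the Kupffer cell surface. Its level was 64.2, 73.2 and 90.1 CPM in control mice, 71.7, 55.3, 55.1, 55.5 and 34.9 CPM in vehicle-treated mice and 55.6, 44.0, 82.8 and 54.3 CPM in hAAM-treated mice. In each APAP group all livers but 1 were below the lowest control liver. In vehicle-treated mice Clec4f had a log2 fold change of -0.48 (SE 0.22, 95% interval -0.96 to 0.01, edgeR adjusted p = 0.126), which did not pass, and with library totals alone it was -0.13. Vehicle mouse 5 had the lowest value of all 12 livers.

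Timd4 encodes a phosphatidylserine receptor used to engulf apoptotic cells and is a marker of long-lived resident macrophages. Its level was 5.97, 6.04 and 6.88 CPM in control mice, 7.48, 6.27, 5.67, 6.61 and 3.86 CPM in vehicle-treated mice and 6.05, 4.74, 7.73 and 6.11 CPM in hAAM-treated mice. The control values lay inside the range of both APAP groups. For Timd4 in vehicle-treated mice the log2 fold change was -0.07 (SE 0.20, 95% interval -0.50 to 0.35, edgeR adjusted p = 0.804), with library totals alone 0.27, and 0.05 without vehicle mouse 5, so that no direction can be given.

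Vsig4 encodes the complement receptor CRIg, with which Kupffer cells catch opsonised bacteria. Its level was 15.3, 21.5 and 24.1 CPM in control mice, 29.8, 21.1, 16.7, 26.9 and 17.0 CPM in vehicle-treated mice and 25.0, 16.8, 29.8 and 17.0 CPM in hAAM-treated mice. The groups overlapped throughout, and the log2 fold change of vehicle-treated mice was 0.14 (SE 0.25, edgeR adjusted p = 0.707). Cd5l encodes a secreted inhibitor of apoptosis of macrophages that is an LXR target. Its level was 59.3, 76.4 and 90.8 CPM in control mice, 122.9, 84.3, 77.4, 89.4 and 68.3 CPM in vehicle-treated mice and 85.4, 76.0, 120.3 and 74.8 CPM in hAAM-treated mice. Only vehicle mouse 1 and hAAM mouse 3 exceeded the highest control liver. For Cd5l the log2 fold change in vehicle-treated mice was 0.23 (SE 0.21, edgeR adjusted p = 0.438), and with library totals alone it was 0.58 (adjusted p = 0.034). In fits without 1 liver it ran from 0.08 without control mouse 1 to 0.38 without control mouse 3, and it never passed.

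Cd163 encodes the scavenger receptor for haemoglobin bound to haptoglobin. Its level was 20.4, 25.7 and 37.8 CPM in control mice, 43.1, 42.5, 25.6, 47.3 and 33.6 CPM in vehicle-treated mice and 29.2, 27.7, 25.0 and 27.2 CPM in hAAM-treated mice. Of the vehicle-treated livers, 3 were above every control liver, and vehicle mouse 3, of the near-identical pair, was the lowest. The log2 fold change of vehicle-treated mice was 0.46 (SE 0.21, edgeR adjusted p = 0.117), which did not pass. The call depended on single livers: the value was 0.58 (adjusted p = 0.0404) without the near-identical pair, 0.57 (adjusted p = 0.0328) without vehicle mouse 3 alone and 0.74 (adjusted p = 0.0284) without control mouse 3. It was 0.27 (adjusted p = 0.380) without control mouse 1. With library totals alone it was 0.81 (adjusted p = 0.014).

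Folr2 encodes folate receptor beta, a marker of resident macrophages in many tissues. It had only 47 to 100 counts per liver, or 0.972 to 1.50 CPM in the controls, 0.828 to 1.72 CPM with vehicle and 0.896 to 1.50 CPM with hAAMs. The groups overlapped almost fully, and the log2 fold change of vehicle-treated mice was 0.01 (SE 0.27, 95% interval -0.57 to 0.59, edgeR adjusted p = 0.981). Changes within that interval were not detectable here.

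Adgre1 encodes F4/80, a surface protein of most mouse tissue macrophages. Its level was 20.7, 24.2 and 23.5 CPM in control mice, 40.5, 28.6, 24.1, 33.0 and 16.5 CPM in vehicle-treated mice and 35.1, 29.7, 35.0 and 24.1 CPM in hAAM-treated mice. Vehicle mouse 5 was below all control livers, and 3 of the other vehicle-treated livers were above them. The log2 fold change of Adgre1 in vehicle-treated mice was 0.32 (SE 0.23, edgeR adjusted p = 0.310), and it was 0.47 without vehicle mouse 5 and 0.17 without vehicle mouse 1. Csf1r, the receptor for CSF1 and IL-34 on which Kupffer cells depend for survival, was at 55.8, 66.1 and 73.0 CPM in control mice, 108.8, 82.1, 67.1, 99.1 and 57.3 CPM in vehicle-treated mice and 94.4, 76.0, 96.7 and 65.9 CPM in hAAM-treated mice. It followed the pattern of Adgre1 over the livers. The log2 fold change of Csf1r was 0.35 (SE 0.20, edgeR adjusted p = 0.212), and with library totals alone both genes passed, Adgre1 at 0.68 (adjusted p = 0.0389) and Csf1r at 0.70 (adjusted p = 0.0191).

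Nr1h3 encodes LXR-alpha, the oxysterol-sensing nuclear receptor that sustains Kupffer cell identity. Its level was 73.7, 78.0 and 81.9 CPM in control mice, 69.1, 66.8, 70.2, 56.9 and 58.4 CPM in vehicle-treated mice and 65.2, 60.9, 65.3 and 68.7 CPM in hAAM-treated mice. Every APAP-treated liver was below every control liver, by a small step, as was so for 17.3% of all genes after vehicle and 14.2% after hAAMs. Relative to the bulk of genes Nr1h3 fell by 0.28 on the log2 scale in vehicle-treated mice (SE 0.08, edgeR adjusted p = 0.0267), but with library totals alone the value was 0.07 (adjusted p = 0.539), so the direction depends on the scaling. The call held in 8 of 12 fits without 1 liver and was lost without control mouse 2 (adjusted p = 0.0664), control mouse 3 (0.108), vehicle mouse 4 (0.0599) or vehicle mouse 5 (0.0571). It was -0.30 (adjusted p = 0.0269) without the near-identical pair. Of 5 genes of hepatocytes, which also make Nr1h3, 2 fell in the same livers, against 14.8% of all genes. The transcription factor Hnf4a was at -0.38 (edgeR adjusted p = 0.0277), and -0.03 with library totals alone, and the pericentral enzyme Cyp2e1 was at -2.37 (adjusted p = 0.0177). The secreted proteins Alb (0.15), Apoa1 (0.15) and Ttr (-0.06) did not pass. The part of hepatocytes in the level of Nr1h3 was not tested.

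**Figure D2:**
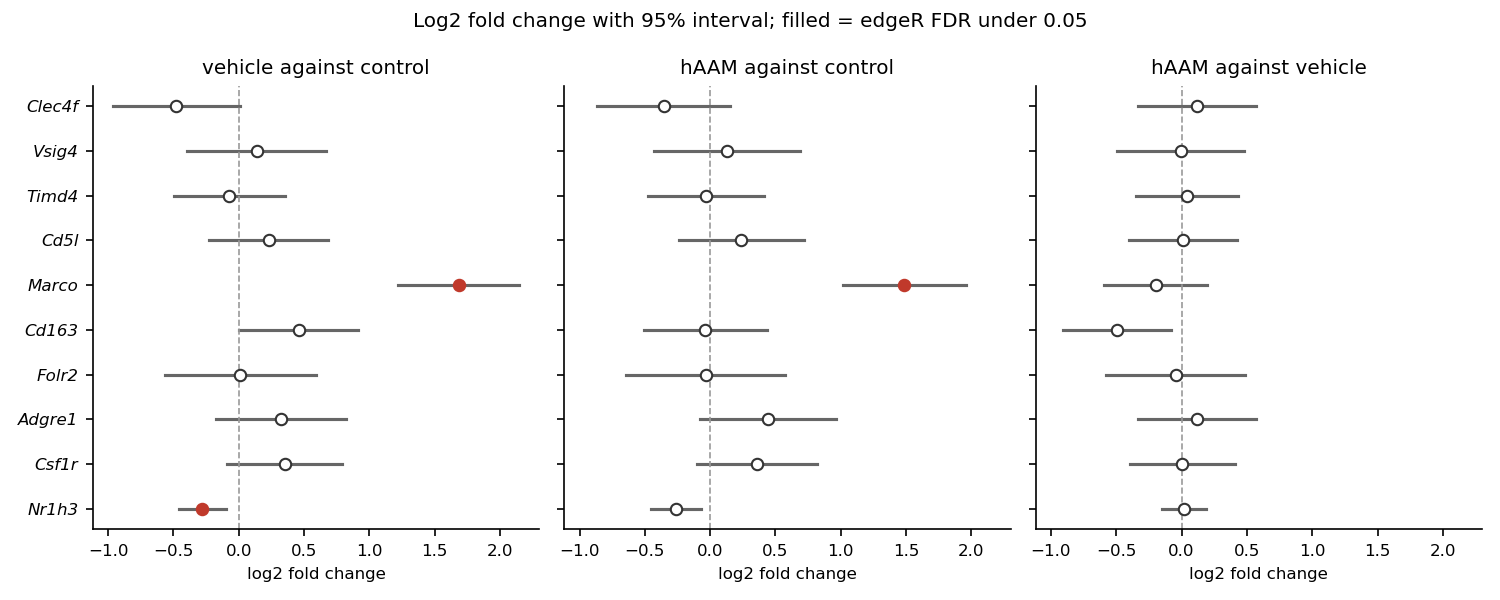
Log2 fold change (x axes) of the 10 markers in edgeR's fit of all 12 livers for the 3 comparisons, with 95% intervals as lines and filled points where the adjusted p was under 0.05. Marco stands alone at 1.68 and 1.48 against control, Nr1h3 passes in vehicle-treated mice only, and in hAAM-treated against vehicle-treated mice the intervals of 9 of the 10 include 0.

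The second comparison set hAAM-treated mice against the same 3 control mice, so that its values share their controls with those above. Of the 10 members 1 rose, again Marco, and none fell, against 20.7% of all genes in either direction, 10.7% higher and 9.96% lower. The median of the members was 0.05, against 0.02 for all genes. Marco was 2.80-fold above control (log2 fold change 1.48, SE 0.22, edgeR adjusted p = 0.00145), with 1.28 to 1.60 in the 12 fits without 1 liver, all of which passed, and 1.57 without the near-identical pair. Nr1h3 had a log2 fold change of -0.26 (SE 0.09, edgeR adjusted p = 0.0544) and missed the threshold, while DESeq2, which called 25.8% of all genes, gave an adjusted p of 0.026, and library totals alone gave a value of 0.04. For Clec4f the value was -0.36 (SE 0.23, edgeR adjusted p = 0.303), with -0.56 without hAAM mouse 3, -0.21 without control mouse 3 and -0.08 with library totals alone. The phagocytic receptors Vsig4 (0.13) and Timd4 (-0.03) and the secreted Cd5l (0.24) did not pass. With library totals alone Vsig4 was at 0.42 and Cd5l at 0.53 (adjusted p = 0.0693), and Cd5l ran from 0.06 without hAAM mouse 3 to 0.39 without control mouse 3. Adgre1 was at 0.44 (edgeR adjusted p = 0.210) and Csf1r at 0.36 (adjusted p = 0.251), and with library totals alone both passed, at 0.74 and 0.65. Cd163 was at -0.04 (edgeR adjusted p = 0.923) and Folr2 at -0.03 (adjusted p = 0.944), and both changed sign with library totals alone, to 0.27 and 0.28.

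The third comparison asked whether the cells changed the markers in injured liver. None of the 10 members passed in hAAM-treated against vehicle-treated mice, and neither did any gene in the liver by edgeR (0% of 22581, with 5.02% at an unadjusted p under 0.05), whereas DESeq2 called 1 gene, 0.00443% of those it tested, which was not a member. Among the members 1, Cd163, had an unadjusted p under 0.05. Its mean was 27.3 ± 1.72 CPM in hAAM-treated mice (SD, n = 4) and 38.4 ± 8.71 CPM in vehicle-treated mice (SD, n = 5), a difference larger than either SD. The log2 fold change was -0.49 (SE 0.19, 95% interval -0.91 to -0.08, edgeR adjusted p = 0.967). All 4 hAAM-treated livers were at 25.0 to 29.2 CPM, and 4 of the 5 vehicle-treated livers were above 29.2. The exception was vehicle mouse 3 at 25.6 CPM, so the groups overlapped. Without the near-identical pair the value was -0.61 (adjusted p = 0.590), and over the 12 fits without 1 liver it ran from -0.61 to -0.41 and never passed.

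The groups overlapped for all 10 members, whereas 0.709% of all genes were higher and 0.691% lower without overlap. For the other members the difference between hAAM-treated and vehicle-treated mice was small against its interval. Marco was at -0.20 (95% interval -0.59 to 0.20), with -0.40 without hAAM mouse 2 and -0.08 without hAAM mouse 3. Clec4f was at 0.12 (-0.33 to 0.57) and Timd4 at 0.04 (-0.35 to 0.43). Adgre1 was at 0.12 (-0.33 to 0.57) and Csf1r at 0.01 (-0.39 to 0.41). Nr1h3, which had the narrowest interval, was at 0.02 (-0.15 to 0.19), and Folr2, with the fewest counts, had the widest, -0.58 to 0.49. Changes of the size that Marco showed against control lie outside all of these intervals.

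A ratio of a pair of markers in the same liver hardly depends on how libraries are scaled, and 3 such ratios were tested over livers with an exact two-sided permutation test, giving 9 comparisons adjusted together. The log2 ratio of Clec4f to Csf1r, a resident marker over a receptor of all liver macrophages, was 0.20, 0.15 and 0.30 in control mice, -0.60, -0.57, -0.28, -0.84 and -0.71 in vehicle-treated mice and -0.76, -0.79, -0.22 and -0.28 in hAAM-treated mice. All 9 APAP-treated livers were below all 3 control livers. The difference was -0.82 in vehicle-treated mice (exact permutation p = 0.0179, adjusted 0.0515) and -0.73 in hAAM-treated mice (exact permutation p = 0.0286, adjusted 0.0515), and each p is the smallest that these group sizes allow. Between the APAP groups it was 0.09 (exact permutation p = 0.603). Without the near-identical pair, vehicle mouse 3 and hAAM mouse 4, the difference was -0.90 in vehicle-treated mice and -0.81 in hAAM-treated mice.

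The ratio of Clec4f to Adgre1 gave a like picture, at 1.63, 1.60 and 1.94 in control mice, 0.82, 0.95, 1.19, 0.75 and 1.08 in vehicle-treated mice and 0.66, 0.57, 1.24 and 1.17 in hAAM-treated mice. The differences from control were -0.76 (exact permutation p = 0.0179) and -0.81 (exact permutation p = 0.0286), adjusted to 0.0515 in both, with no overlap. The log2 ratio of Timd4 to Clec4f, both resident markers, was -3.57 ± 0.14 in the 3 controls (mean ± SD), -3.18 ± 0.09 in the 5 livers with vehicle and -3.24 ± 0.12 in the 4 livers with hAAMs. It was higher in all vehicle-treated livers than in any control liver (difference 0.39, exact permutation p = 0.0179, adjusted 0.0515), and higher in hAAM-treated livers by 0.33 (exact permutation p = 0.0571, adjusted 0.0856), where hAAM mouse 3 at -3.42 lay next to control mouse 1 at the same value to 2 decimals. Thus none of the 9 comparisons passed 0.05 after adjustment, and 5 of them were at the smallest p their group sizes allow. These 5 are not independent results. All 3 ratios contain Clec4f, Csf1r and Adgre1 had the most alike levels over the livers of any pair of members, and both APAP groups share the 3 controls. How often ratios of other gene pairs separate the groups was not computed.

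**Figure D3:**
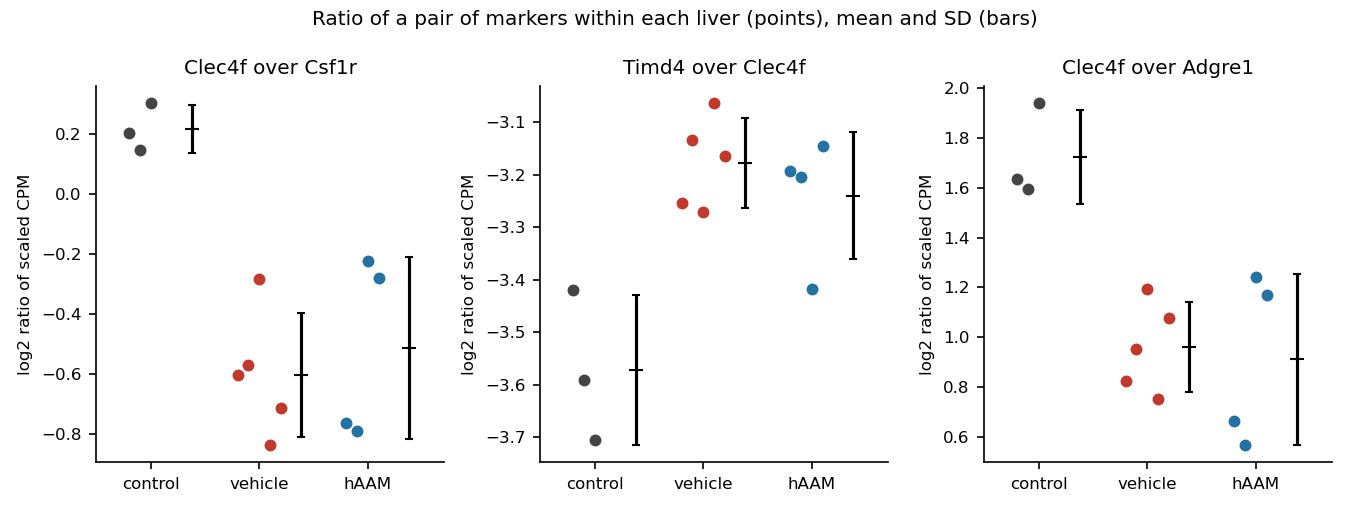
Log2 ratio (y axes) of Clec4f to Csf1r, Timd4 to Clec4f and Clec4f to Adgre1 in each liver by group, with mean and SD beside the points. The APAP-treated livers lie below the 3 control livers in both ratios of Clec4f to a receptor and above them in Timd4 to Clec4f, where hAAM mouse 3 and control mouse 1 both lie at -3.42 to 2 decimals, and the vehicle-treated and hAAM-treated livers overlap.

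**Figure D4:**
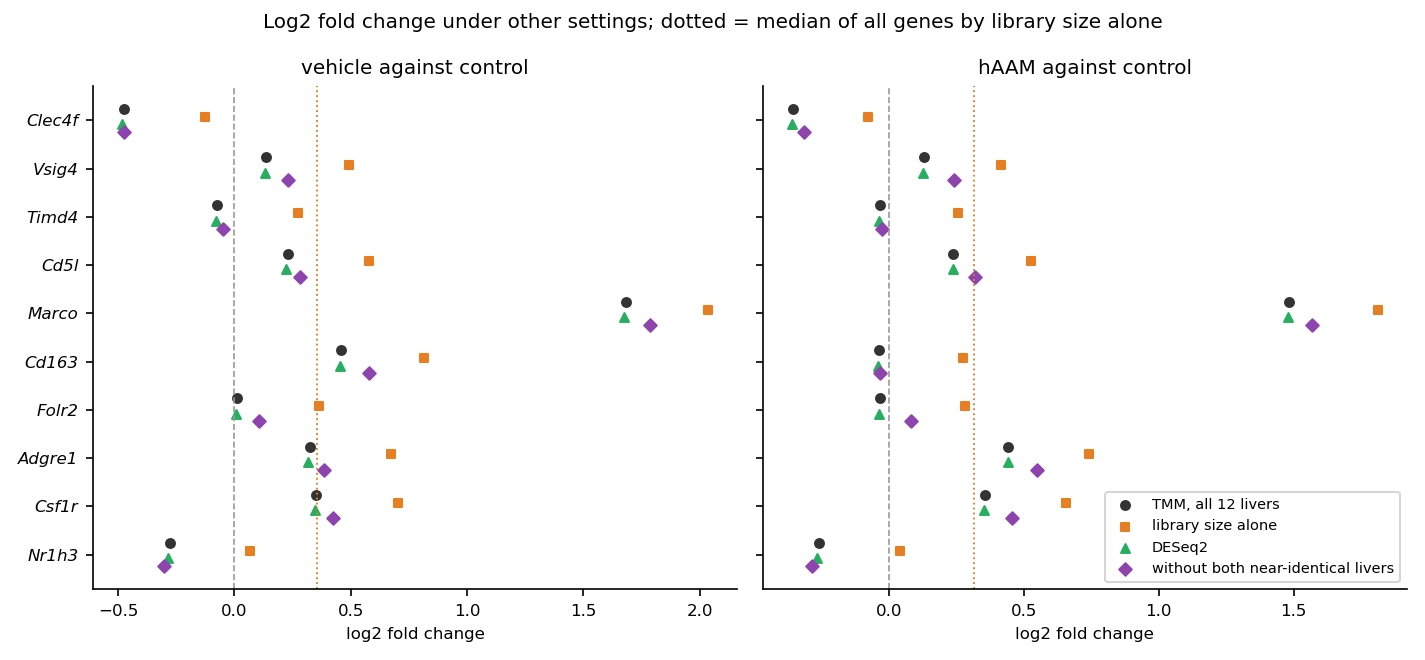
Log2 fold change (x axes) of the 10 markers against control with TMM scaling, with library totals alone, with DESeq2 and without the near-identical pair of livers, for vehicle-treated and hAAM-treated mice. Library totals alone move every marker to the right by about the shift of the median gene (dotted line, 0.36 and 0.32), which takes Nr1h3 and Timd4 across 0 in both groups and Cd163 and Folr2 with hAAMs, and leaves Marco furthest right.

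Other genes of the resident cell gave a mixed picture. Of 12 further genes of the Kupffer cell core, 4 rose and 1 fell in vehicle-treated mice, against 15.0% and 14.8% of all genes, with a median log2 fold change of 0.32. The number called, 5, was 3 without the near-identical pair and 8 with library totals alone, where 43.2% of all genes were called. Those that rose include Fabp7, a fatty acid binding protein, at 1.10 (edgeR adjusted p = 0.00505), and Cdh5, which is also the cadherin of endothelial junctions, at 1.01 (adjusted p = 0.009). The lectin gene Clec1b was at 0.59 (edgeR adjusted p = 0.0371), and at 0.55 (adjusted p = 0.0751) without the pair. Clec1b passed in 6 of the 12 fits without 1 liver. Some endothelial genes moved with Cdh5. Of 7 genes of the sinusoidal endothelium 3 rose and none fell by the test, Lyve1 at 1.29, Pecam1 at 1.00 and Oit3 at 0.42, against 15.0% and 14.8% of all genes, and with library totals alone 6 were called, against 43.2%. Clec4g went the other way, with every vehicle-treated liver below every control liver, and did not pass (-0.58, adjusted p = 0.0598), as did not Stab2 (0.23), Fcgr2b (0.19) and Kdr (-0.10). The part of endothelium in the level of Cdh5 was not tested. The summed level of those 7 genes was 320 to 351.9 CPM in control, 354.9 to 433.9 CPM in vehicle-treated and 330.3 to 406.6 CPM in hAAM-treated livers. In hAAM-treated mice 2 of the 7 rose and none fell, against 10.7% and 9.96% of all genes. Without the near-identical pair 4 were called there. In the core list, the gene that fell in vehicle-treated mice was the complement component C6, which hepatocytes also make, at -1.90 (edgeR adjusted p = 5.9e-05). Of 11 transcription factors linked to Kupffer cell identity, 5 rose and 3 fell, against the same 15.0% and 14.8%. The BMP target Id1 rose by 2.90, Spi1, which encodes PU.1, by 1.02 and Zeb2 by 0.91 on the log2 scale. Spic, a factor of haem-handling macrophages named here after its values were seen, was at -1.39 (edgeR adjusted p = 0.0393), but the groups overlapped and the call rested on 1 liver. Its level was 9.72, 2.28 and 1.80 CPM in control mice 1 to 3 and 1.39 to 2.32 CPM in vehicle-treated mice, and without control mouse 1 the value was -0.22 (adjusted p = 0.626). Rxra, Smad4 and Id3 were also named after their values were seen, and their tests are not given here. Rxra was at 464.7 to 549 CPM in control and 350.2 to 400.9 CPM with vehicle. Smad4 was at 39.02 to 42.84 CPM in control and 31.97 to 35.64 CPM with vehicle. Both were lower without overlap, as were 17.3% of all genes. Id3 overlapped, at 45.57 to 107.7 and 20.52 to 66.65 CPM. With hAAMs Id3 was at 35.02 to 43.11 CPM, below every control liver, as were 14.2% of all genes. Genes in these lists with fold changes below 0 by less than 0.36 would, like Nr1h3, come near or above 0 with library totals alone. In hAAM-treated mice the counts were 3 higher and 1 lower in the core list and 4 higher and 3 lower among the factors, against 10.7% and 9.96% of all genes, and with library totals alone the core list had 7 called, against 32.5%.

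The members were set beside genes of all macrophages and of recruited cells. Of 12 genes of all macrophages, 6 rose and none fell in vehicle-treated mice, against 15.0% and 14.8% of all genes, with a median of 0.61, and with library totals alone 11 were called, against 43.2% of all genes. Those that rose include the lysosomal protein Cd68 at 2.21, the signalling adaptor Tyrobp at 1.18, the lysosomal membrane protein Laptm5 at 0.94 and the Fc receptor Fcgr1 at 1.31, which did not pass without control mouse 1 (1.16, adjusted p = 0.072). Of 13 genes of recruited monocytes and macrophages, 9 rose and none fell, against the same shares, with a median of 2.62. With library totals alone all 13 were called in both APAP groups, against 43.2% of all genes with vehicle and 32.5% with hAAMs. Chil3 was at 5.67, Gpnmb at 4.54, F13a1 at 4.03 and the lipid receptor Trem2 at 2.78, all on the log2 scale against control. In hAAM-treated mice 6 and 9 genes of the 2 lists rose and none fell, against 10.7% and 9.96% of all genes, with medians of 0.75 and 2.53. Without the near-identical pair 8 and 13 genes were called with hAAMs, and 7 and 12 with vehicle. The shares of all genes without the pair are not given here. The medians of the 10 members, 0.18 and 0.05, lay below both lists, and no test of that difference was made. The complement genes C1qa, C1qb and C1qc, which resident macrophages make in quantity and which were named after their values were seen, were at 0.16, 0.43 and 0.35 in vehicle-treated mice and did not pass (edgeR adjusted p = 0.610, 0.173 and 0.218). Genes of other cell types moved in the same livers. Of 5 red cell genes, 4 rose and 1, Alas2, fell in vehicle-treated mice, with a median of 2.49. Of 4 stellate cell genes 2 rose, Pdgfrb at 1.37 and Des at 1.25, and of 4 genes of peritoneal macrophages 2 rose, Garnl3 at 1.36 and Icam2 at 0.64, whereas their defining factor Gata6 was at 0.04 and did not pass. Of 5 T cell genes 1 fell, Cd4 at -1.35, and no gene of the neutrophil or B cell lists passed by edgeR (2 and 0 at an unadjusted p under 0.05, and 1 and 0 by DESeq2). Of all genes, 15.0% passed as higher and 14.8% as lower in this comparison by edgeR after adjustment. The shares of all genes at an unadjusted p and by DESeq2 are not given here, so those counts cannot be set against a background. In hAAM-treated mice 2 stellate cell genes and 1 peritoneal macrophage gene rose and 1 red cell gene fell, against 10.7% and 9.96% of all genes. No gene of the T cell, neutrophil or B cell lists passed there. Of the red cell genes 5 were called without the near-identical pair, and 5 by DESeq2, which called 25.8% of all genes. The summed red cell level was 134.6 to 240.1 CPM in control, 220.4 to 2025 CPM in vehicle-treated and 225.9 to 733.4 CPM in hAAM-treated livers. The part of these cells in the lists was not tested. Neither list had a gene that passed between hAAM-treated and vehicle-treated mice.

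**Figure D5:**
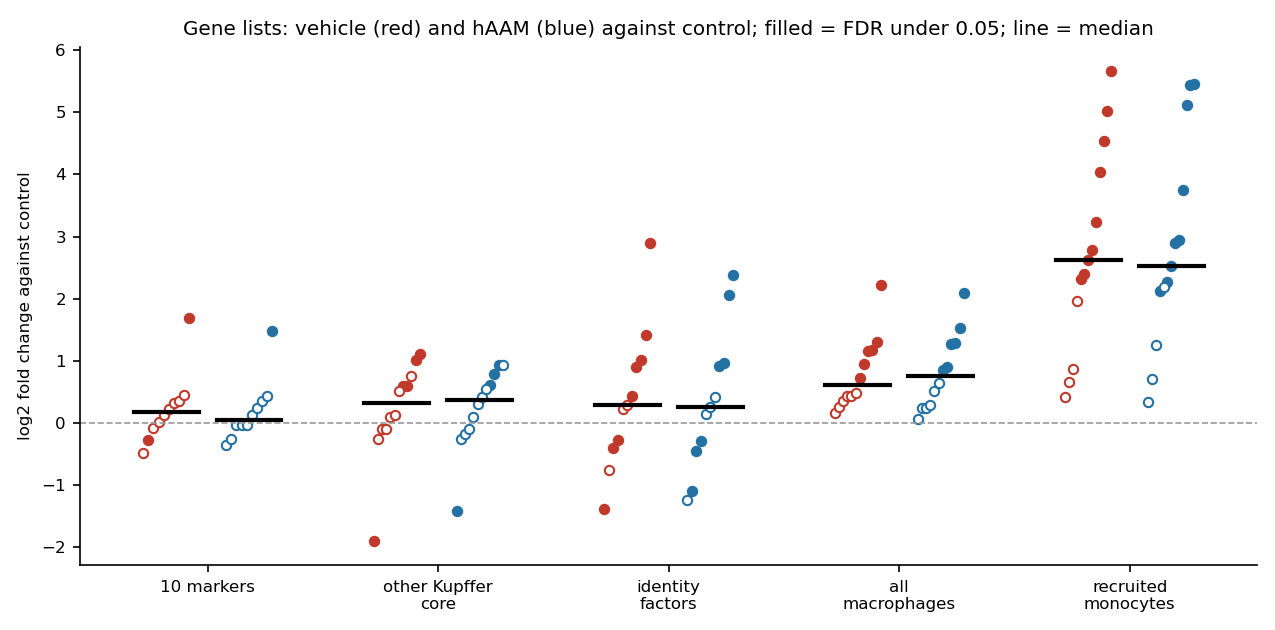
Log2 fold change against control (y axis) of each gene in the 10 markers and 4 further lists, for vehicle-treated (red) and hAAM-treated (blue) mice, filled where edgeR's adjusted p was under 0.05, with the list median as a line. The medians of the recruited list, 2.62 and 2.53, are the highest, and those of the 10 markers, 0.18 and 0.05, the lowest of the 5.

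Likeness among the members was measured as the root mean square difference of log2 CPM over the 12 livers after centring each gene, which reflects shared libraries as well as shared cells. The closest pair was Adgre1 and Csf1r at 0.114, followed by Vsig4 and Cd5l at 0.145 and Cd5l and Csf1r at 0.153. Clec4f was nearest to Timd4, at 0.188, and furthest from Marco, at 1.01. Among 15239 genes outside the list, those nearest to Clec4f were Gpat4 (0.147), Adgre4 (0.161) and Aass (0.164). Adgre4 encodes a relative of F4/80, and Gpat4 and Aass encode metabolic enzymes. The nearest to Timd4 were Slc25a15 (0.0934), Slc22a18 (0.103) and Gm44861 (0.125), and the nearest to Marco were Rbm3 (0.174), Iqgap1 (0.193) and Vat1 (0.193). For Cd163 they were Thsd1 (0.132), Sall2 (0.160) and P2ry2 (0.186). These neighbours are a description of 12 livers.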

How the data were processed

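RNA-seq of whole liver was analysed in 12 mice. The deposited values are raw counts per gene, made by the authors from rRNA-depleted directional libraries with Cutadapt 4.6, STAR 2.7.1a and GRCm38 with Ensembl release 100, per the methods and the labels. Genes with a total under 15 over the 12 livers are absent from the table, and 24092 of 24187 genes have a symbol. All 12 libraries were fitted together in edgeR 4.0.16 (R 4.3.3) with filterByExpr by group, TMM factors and the quasi-likelihood test, and p was adjusted over all genes tested by the Benjamini-Hochberg method. CPM are TMM-scaled, and ratios used log2 CPM with a prior count of 2. Alternatives were DESeq2 1.42.0, its size factors in edgeR, library totals alone, other filters, 2 groups only, a replicate block, and fits without 1 liver or without the near-identical pair. The 10 members, all lists and the alternatives were chosen with earlier results of these data known. The naming rule took all members, up to 4 genes per list by smallest p in vehicle-treated against control mice and up to 2 by smallest p between APAP groups, and the 3 nearest genes of 4 members. Some genes it selects are given only in their list's counts, mainly those that did not pass, and 1 is not reported here. The scripts were tested on simulated data. Each liver is taken as a separate mouse.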

Additional observations from a re-analysis of the deposited data

How the results depend on the processing

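Over 8 settings other than leaving out a liver, 71 of 80 member values in vehicle-treated against control mice, 72 of 80 in hAAM-treated against control mice and 69 of 80 between the APAP groups kept their direction and their side of the threshold. Members called in hAAM-treated against control mice were 2 with DESeq2. With library totals alone, members called were 5 (vehicle) and 3 (hAAM), where 43.2% and 32.5% of all genes were, and the other lists had 59 genes called in hAAM-treated against control mice, against 36 with TMM. The signs that turned were Timd4 (0.27) and Nr1h3 (0.066) in vehicle-treated mice, Timd4 (0.25), Cd163 (0.27), Folr2 (0.28) and Nr1h3 (0.040) in hAAM-treated mice, and Timd4 (-0.020), Cd5l (-0.055), Csf1r (-0.049) and Nr1h3 (-0.026) between the APAP groups. All genes called in hAAM-treated against control mice were 7340 with library totals alone and 2729 with only 2 groups in the fit, against 4666. Without both near-identical livers, Folr2 (0.081, hAAM against control) and Vsig4 (0.0082, hAAM against vehicle) changed sign, and the hAAM differences of the Clec4f ratios were -0.81 to Csf1r and -0.90 to Adgre1 (exact permutation p = 0.1 each, the smallest that 3 against 3 allows).

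Replicate numbers only name mice: deviations of 10 same-numbered pairs correlated at -0.458 to 0.385, with 3 above 0.1. With the replicate block 1 member was called in vehicle-treated mice, since Nr1h3 was at -0.23 (edgeR adjusted p = 0.133), all genes called were 4253 and 2959, Timd4 was at 0.049 against control, and between the APAP groups Clec4f (-0.040), Timd4 (-0.095), Cd5l (-0.095), Adgre1 (-0.026), Csf1r (-0.11) and Nr1h3 (-0.012) changed sign.

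Leaving out each liver in turn gave 1 to 3 members called in vehicle-treated and 1 to 2 in hAAM-treated mice against control, and 33 to 53 and 20 to 46 genes called in the other lists, the lowest of each without control mouse 3 (22 of the second without hAAM mouse 1). The ratio differences ran, for vehicle against control, from -0.90 to -0.76 (Clec4f to Csf1r), and for hAAM against control from -0.83 to -0.64 (Clec4f to Csf1r) and from -0.92 to -0.70 (Clec4f to Adgre1). Between the APAP groups they ran from -0.0091 to 0.18 (Clec4f to Csf1r) and from -0.16 to 0.065 (Clec4f to Adgre1). Signs turned for Vsig4 (-0.030 to 0.28), Timd4 (-0.17 to 0.051) and Folr2 (-0.14 to 0.19) in vehicle-treated mice, for Vsig4 (-0.047 to 0.27), Timd4 (-0.16 to 0.078), Cd163 (-0.22 to 0.24) and Folr2 (-0.17 to 0.15) in hAAM-treated mice, and between the APAP groups for Clec4f (-0.087 to 0.24), Vsig4 (-0.18 to 0.12), Timd4 (-0.085 to 0.15), Cd5l (-0.17 to 0.16), Folr2 (-0.18 to 0.11), Adgre1 (-0.025 to 0.28), Csf1r (-0.10 to 0.12) and Nr1h3 (-0.023 to 0.051). The cause of these changes was not tested. Folr2 had the fewest counts of the members, 47 to 100 per liver, and its counting error was not separated from the spread between mice. For the other lists, settings besides DESeq2 and leaving out the near-identical pair were chosen after seeing the data.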

Other observations

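Further groups of genes around the Kupffer cell showed values that no comparison above describes. Of 10 signals of its niche and their receptors, 4 rose in vehicle-treated against control mice (edgeR, adjusted p under 0.05) and none fell, against 15.0% of all genes higher and 14.8% lower, and with library totals alone 7 were called, against 43.2% of all genes. The 4 were Il34, a ligand of the CSF1 receptor, at 1.46, Tgfb1 at 1.08, the Notch ligand Dll1 at 0.89 and Notch1 at 0.38 on the log2 scale. Tgfb1 did not pass without control mouse 2 or 3. Csf1, the other ligand of the receptor, was at -0.32 and did not pass. Its sign rested on control mouse 1, at 72.5 CPM with the other controls no higher than 22.7 CPM, without which the value was 0.48 (edgeR adjusted p = 0.328). In hAAM-treated mice 2 of the 10 passed, Dll1 (0.78) and Tgfb1 (0.97), where 20.7% of all genes did. DESeq2 called 4, against 25.8% of all genes, library totals alone 6, against 32.5%, and Dll1 was at 0.74 (edgeR adjusted p = 0.0507) without the near-identical pair.

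Of 10 genes of the LXR pathway, 2 rose and 3 fell in vehicle-treated mice, against 15.0% and 14.8% of all genes, and with library totals alone 3 were called, against 43.2%. The cholesterol exporter Abcg1 rose by 1.04 and the ubiquitin ligase Mylip by 0.59, whereas the exporter Abca1 fell by 0.71, the lipid transfer protein Pltp fell by 0.61 and Apoe fell by 0.56. Pltp and Apoe were called in 5 and 3 of the 12 fits without 1 liver, and Mylip in 7. The genes that fell are also made by hepatocytes. In hAAM-treated mice Abcg1 (1.18) and Mylip (0.60) passed, against 10.7% of all genes higher, and Abcg1 alone without the near-identical pair, while DESeq2 called 3, against 25.8%, and library totals alone 4, against 32.5%. None of the 10 passed as lower, against 9.96%, although Abca1 (-0.36, edgeR adjusted p = 0.0588), Pltp (-0.52, adjusted p = 0.119) and the LXR-beta gene Nr1h2 (-0.17, adjusted p = 0.180) were lower in every hAAM-treated than in any control liver, as were 14.2% of all genes. Abca1 was higher in every hAAM-treated than in any vehicle-treated liver (log2 fold change 0.35, edgeR adjusted p = 0.967), as were 0.709% of all genes. The margin was narrow, with the lowest hAAM-treated liver at 519.2 CPM and the highest vehicle-treated liver at 513.7 CPM. C6, at 0.49, also differed at an unadjusted p under 0.05 between the APAP groups by edgeR and did not pass after adjustment. Csf1, Pltp and Nr1h2 were named after their values were seen.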
